A study of Rattus norvegicus with 6 samples.

Results

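The Dlk1-Dio3 imprinted locus of the rat was followed here through its microRNAs (miRNAs) in tendon-derived stem cells (rTDSCs) with and without mechanical loading. The members were chosen by name, with earlier results of these data known. They are every miRNA on the array whose number stood on a list of hairpins of the locus, with any letter, arm or star suffix. This gave 83 of the 677 miRNAs of the array. These 83 names come from 44 hairpins. One listed number, miR-679, had no name on the array.

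The cells were isolated from the patellar tendon of 8-week-old male Sprague-Dawley rats and were used at passage 3. Cells of both groups grew on flexible plates coated with collagen I. The loading group (3 samples) was stretched along one axis in cycles at 0.5 Hz to an elongation of 10%, 8 h per day, the non-loading group (3 samples) was kept static and untreated, and RNA was taken after 7 days. The study asked which miRNAs respond to loading in cells that are turning toward cartilage and bone. Each sample was hybridised in 1 colour to 1 array, and all 6 arrays shared 1 slide. Nothing in the labels says that the samples came from separate cultures or animals, so the p-values measure only the spread between these samples, which may be technical.

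A miRNA is a short RNA cut from a hairpin precursor, and its seed, bases 2 to 8, does most of the pairing with target mRNAs. The Dlk1-Dio3 locus is imprinted. Its protein-coding genes, the Notch pathway regulator Dlk1, the retrotransposon-derived Rtl1 and the thyroid hormone deiodinase Dio3, are transcribed from the paternal chromosome, and its non-coding RNAs, Meg3 and the hairpins among them, from the maternal one. The hairpins lie in long transcripts that can yield many mature miRNAs at once. The locus is known for high expression in the embryo, the placenta and the brain and for roles in stem cells and muscle.

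In the gene table of the rat assembly GRCr8, all 44 hairpins lie on the plus strand of chromosome 6, between the start of Meg3 and Dio3. The 13 hairpins nearer to Meg3 run from Mir770, which lies inside Meg3, to Mir370 (called proximal below), and 5 of them, Mir431, Mir433, Mir127, Mir434 and Mir136, lie within the span of Rtl1. Those 5 lie on the strand opposite to the Rtl1 mRNA, a position for which some of them are known as repressors of that gene. The other 31 run from Mir379 to Mir410 (distal below). No coordinates are printed, because the array was annotated on an older assembly.

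The sequences below are those of the hairpins on which the comparisons turn, from the RefSeq table of GRCr8, printed 5′ to 3′ with the seed in capitals. The array uses older names without an arm for most of them, and the files used here do not tie such a name to the 5p or the 3p strand, so both arms are shown and the array's value is not assigned to either. The array's miR-431, miR-300-3p and miR-369-5p match their table names as written. Of Mir127 the table holds the 3p arm. The first set holds the proximal hairpins measured on all 6 arrays.
miR-337-5p: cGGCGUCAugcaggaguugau
miR-337-3p: uUCAGCUCcuauaugaugccuuu
miR-431: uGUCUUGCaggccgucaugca
miR-127-3p: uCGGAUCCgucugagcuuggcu
miR-434-5p: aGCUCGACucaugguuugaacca
miR-434-3p: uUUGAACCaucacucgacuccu

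The second set holds the distal hairpins that were tested, in the order of the chromosome from Mir379 to Mir410.
miR-379-5p: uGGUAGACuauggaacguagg
miR-379-3p: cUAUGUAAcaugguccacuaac
miR-411-5p: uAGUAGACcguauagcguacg
miR-411-3p: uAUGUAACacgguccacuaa
miR-299a-5p: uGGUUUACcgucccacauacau
miR-299a-3p: uAUGUGGGacgguaaaccgcu
miR-329-5p: aGAGGUUUucugggucucuguuuc
miR-329-3p: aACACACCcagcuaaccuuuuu
miR-494-5p: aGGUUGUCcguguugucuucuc
miR-494-3p: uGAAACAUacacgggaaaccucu
miR-300-3p: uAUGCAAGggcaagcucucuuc
miR-487b-5p: aGUGGUUAucccuguccucuucg
miR-487b-3p: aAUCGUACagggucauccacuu
miR-382-5p: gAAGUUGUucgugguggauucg
miR-382-3p: aAUCAUUCacggacaacacuu
miR-154-5p: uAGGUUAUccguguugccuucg
miR-154-3p: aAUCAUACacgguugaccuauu
miR-369-5p: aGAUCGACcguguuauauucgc
miR-410-5p: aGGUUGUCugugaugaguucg
miR-410-3p: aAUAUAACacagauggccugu

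Few members shared a seed. GGUUGUC was the seed of 3 locus miRNAs, miR-410-5p, miR-494-5p and miR-496-5p, AUACAAG that of miR-381-3p and miR-539-3p, and UGGAUAU that of miR-376b-5p and miR-376c-5p. Among miRNAs outside the list, miR-362-3p carries the seed of miR-329-3p and miR-344b-1-3p that of miR-410-3p. The arms miR-299b-5p and miR-299b-3p carry the seeds of miR-299a-5p and miR-299a-3p. Further, miR-672-5p carries the seed of miR-377-5p, miR-741-5p that of miR-376c-3p and miR-1193-3p that of miR-370-5p. Some distal members shared short runs of letters, which in part overlap the seed. The letters ACACGG, searched on the mature strand alone and chosen after the sequences were seen, stood in 5 of 81 mature miRNAs of the locus (6.17%), namely miR-411-3p, miR-323-3p, miR-494-3p, miR-485-3p and miR-154-3p, and in 2 of the 612 outside the list (0.327%), miR-25-5p and miR-3578, the latter from the minus strand of the same stretch of chromosome 6. The reverse complement CCGUGU stood in 3 locus miRNAs (3.70%), miR-494-5p, miR-154-5p and miR-369-5p, and in 1 outside the list (0.163%). The median GC content was 57.1% over the 21 mature miRNAs of the proximal hairpins, 45.6% over the 60 of the distal ones and 47.8% over all 693 in the table. Array signals were not corrected for base composition, and levels of different miRNAs are therefore not set against each other below.

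Signals are given as percent of the 75th percentile of the array, taken over the 173 probes detected on all 6 arrays. Before scaling, this percentile lay between 275.1 and 362.2 intensity units on the non-loading arrays and between 262.6 and 324.4 on the loading arrays. The scanner software detected 140 to 176 miRNAs per non-loading array and 145 to 186 per loading array, and the 148 that were detected on every array of the loading group, the non-loading group or both were tested. Of 8 mesenchymal or fibroblast miRNAs listed as markers, 7 (miR-21, miR-22, miR-31, miR-143, miR-199a-3p, miR-199a-5p and miR-214) were detected on every array and miR-145 on some. None of 6 muscle, 7 epithelial and 1 liver marker was detected on any array. Of 5 neural markers miR-128 was detected on every array and the other 4, miR-124 among them, on none, with a summed signal of 19.2 to 22.7% in non-loading and 19.5 to 20.6% in loading samples. In the blood list only miR-223 was detected, on some arrays, with a summed signal of 4.48 to 8.92% and 7.72 to 9.47%. In the endothelial list only miR-126 was detected, on every array, with a summed signal of 2.77 to 5.24% and 3.95 to 5.73%.

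Most miRNAs of the locus were not detected in these cells. Of the 83 names, 62 (74.7%) were detected on no array, beside 71.9% of all 677. Another 13 (15.7%) were detected on all 6 arrays, beside 133 of all miRNAs (19.6%), and 8 on some arrays. Absence of a call does not show that a miRNA is absent. The scanner software's call for a miRNA did not always follow its flags for single spots. Of the 62, 34 had no spot above background on any array and the highest count was 3 of 120 spots, for miR-543*.

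The detected members were, with 1 exception, names without a star. The star marks the strand that the older nomenclature took for the less abundant one. Among 48 names without a star 20 were detected on at least 1 array, and among 35 star names 1 was, miR-411*. This split was not counted over all miRNAs of the array, so it cannot be called a trait of the locus. Both names of a hairpin were on the array for 39 hairpins, and Mir411 was the only one of them with both detected. There, miR-411* was detected on all 6 arrays and miR-411 on 2 arrays of each group.

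**Figure D1:**
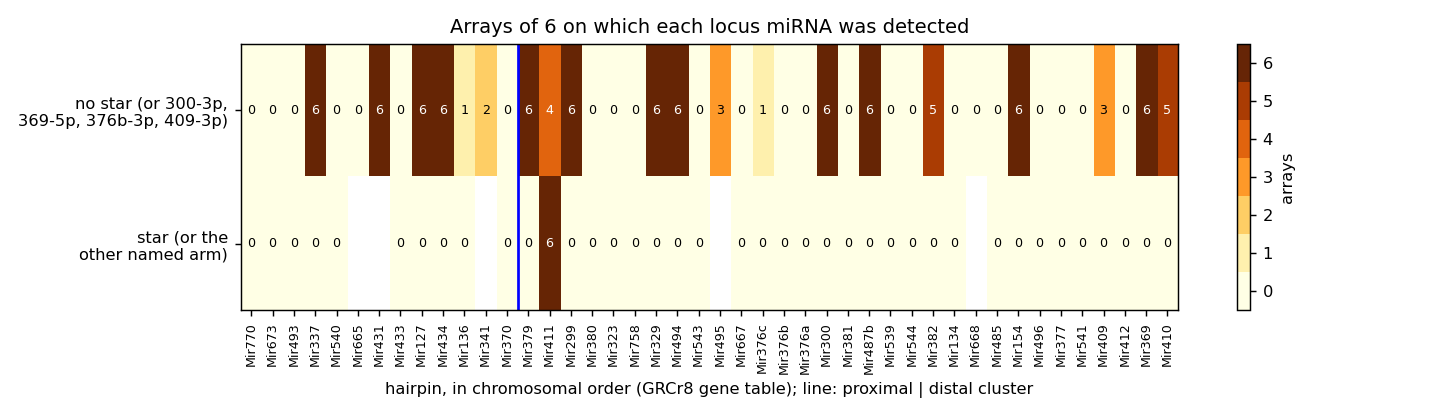
Number of arrays (0 to 6) on which each array name was detected, by hairpin in chromosomal order, with names without a star in the upper row and, in the lower row, star names or the other named arm of the hairpin. A blank marks a hairpin with 1 name on the array. The 13 names detected on all 6 arrays lie in both the proximal and the distal hairpins, and miR-411* is the only star name detected.

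Detection was spread over the locus. In the proximal group 6 of 23 names were detected on at least 1 array and 4, miR-337, miR-431, miR-127 and miR-434, on all 6. In the distal group 15 of 60 names were detected on at least 1 array and 9, miR-379, miR-411*, miR-299, miR-329, miR-494, miR-300-3p, miR-487b, miR-154 and miR-369-5p, on all 6. Within the span of Rtl1, miR-431, miR-127 and miR-434 were detected on every array, miR-136 on 1 non-loading array and miR-433 on none. Yet miR-136 had 0 of 60 spots above background on the non-loading and 4 of 60 on the loading arrays. Its call and its spots thus disagree. Detected members per array numbered 16, 19 and 14 in non-loading replicates 1, 2 and 3, and 20, 14 and 19 in loading replicates 1, 2 and 3. These ranges overlap, and the 2 arrays with the lowest number belong to different groups.

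Of 21 detected members, 15 were tested and 6 were detected on too few arrays. miR-341 was detected on 2 loading arrays and no non-loading array, miR-376c on 1 loading array, and miR-409-3p and miR-495 on 1 non-loading and 2 loading arrays each. For miR-409-3p, 11 of 60 spots were above background on the non-loading arrays and 25 of 60 on the loading arrays. The other untested members had at most 7 of 60 spots above background in either group, so no level is given for them. miR-382 entered the test only through the non-loading group, with detection on 3 non-loading and 2 loading arrays, and miR-410 only through the loading group, with 2 and 3.

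The loading comparison gave small differences among the 15 tested members, and none passed the adjusted threshold. Between group means the log2 changes ran from -0.42 to 0.33. miR-154, a distal miRNA, was lower in all 3 loading samples than in any non-loading sample, and miR-410, from the distal end of the cluster, was higher in all 3. miR-337, from the hairpin whose 3p arm the study followed, and miR-127 were lower on average, with groups that overlapped. In RNA from whole cultures, fewer cells that make a miRNA and less of it per cell cannot be told apart.

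Over all 148 tested miRNAs, limma with Benjamini-Hochberg adjustment called 0 at 0.05 (0%), and 0 members were called. At an unadjusted p under 0.05 there were 14 of 148 (9.46%), 13 higher (8.78%) and 1 lower (0.676%) under loading. The members among them were miR-410 and miR-154, and miR-154 was the only lower one of all miRNAs. miR-410 had entered the test only through the loading group, in which it was higher, so its place in this count is no support for a difference. Among miRNAs detected on all 6 arrays, miR-154 was the only member below 0.05, 1 of 13, beside 9.02% of 133. With the groups not overlapping there were 23 of 148 (15.5%), 19 higher (12.8%) and 4 lower (2.70%) under loading, and the 2 members among them were again miR-410 (higher) and miR-154 (lower). The members' 2 of 15 is close to either background share.

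The signal of miR-154 was 12.9%, 11.3% and 12.3% in non-loading replicates 1, 2 and 3 and 7.92%, 9.17% and 10.2% in loading replicates 1, 2 and 3. Every loading sample lay below every non-loading sample. The means were 12.1% ± 0.810 and 9.11% ± 1.16 (SD, n = 3 each), a ratio of 0.748. The log2 change was -0.42 (standard error 0.12, 95% interval -0.71 to -0.13), with an unadjusted p of 0.0122 and an adjusted p of 0.451 in limma with Benjamini-Hochberg adjustment. The two-sided exact permutation p was 0.1, the smallest that 3 samples against 3 allow. In most alternatives of processing and testing the unadjusted p was under 0.05, the row block with its single loading array not counted. The log2 change was negative under all 23 alternatives. The lower floor, the other detection filters, pooled variance, eBayes trend and the replicate block left this change as it was. These alternatives could not turn its sign, and runs without 1 array reuse the other samples. Over all alternatives the change ranged from -0.61 to -0.058, the latter with an unadjusted p of 0.557 in limma with normexp after outlying background values were replaced.

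miR-410 was the member with the highest change. Its signal was 6.09%, 6.45% and 5.14% in the non-loading samples and 6.75%, 7.87% and 7.56% in the loading samples. The groups did not overlap, but the gap between the highest non-loading and the lowest loading sample was small. The means were 5.89% ± 0.678 and 7.39% ± 0.575 (SD, n = 3), and the log2 change was 0.33 (standard error 0.12, 95% interval 0.05 to 0.62). limma gave an unadjusted p of 0.0294 and an adjusted p of 0.486 with Benjamini-Hochberg adjustment, and the exact permutation p was 0.1. Since miR-410 passed the filter only through the group in which it was higher, the interval and the p-values describe these samples and do not support a difference. Of 60 spots per group, 15 were above background on the non-loading and 35 on the loading arrays, so the non-loading value rests on few spots. With normexp background correction the change was -0.56, while the median over all tested miRNAs was -0.45.

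The 4 proximal members measured everywhere did not separate the groups. The signal of miR-337 was 5.41%, 5.18% and 5.79% in the non-loading samples and 4.64%, 4.34% and 5.27% in the loading samples. Loading replicate 3 lay between the non-loading values and the other loading samples below them. The means were 5.46% ± 0.308 and 4.75% ± 0.472 (SD, n = 3), and the log2 change was -0.20 (standard error 0.10, 95% interval -0.45 to 0.04), with a ratio of 0.868. limma gave an unadjusted p of 0.0898 and an adjusted p of 0.606 with Benjamini-Hochberg adjustment, and the exact permutation p was 0.2. Of 60 spots per group, 23 were above background on the non-loading and 18 on the loading arrays. Over all alternatives the log2 change of miR-337 ranged from -0.59 to -0.0033, and it was -0.11 with outlier spots kept. The star strand, miR-337*, had 0 of 120 spots above background, and its values scattered between -2.45% and -0.170% after background subtraction.

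miR-127, which lies opposite Rtl1, had signals of 22.4%, 24.1% and 27.4% in the non-loading and 22.0%, 19.3% and 23.1% in the loading samples. Loading replicate 3 exceeded non-loading replicate 1, so the groups overlapped. The log2 change was -0.20 (standard error 0.11, 95% interval -0.48 to 0.08), with an unadjusted p of 0.134 and an adjusted p of 0.709 in limma with Benjamini-Hochberg adjustment, and an exact permutation p of 0.2. The signal of miR-434, also opposite Rtl1, was 16.7%, 17.5% and 22.0% against 17.9%, 16.5% and 20.9%, with a log2 change of -0.02. In both groups replicate 3 was the highest, and the groups overlapped almost wholly.

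For miR-431, the signal was 5.34%, 5.62% and 3.98% in the non-loading and 4.62%, 5.15% and 5.59% in the loading samples. Non-loading replicate 3 was the lowest of the 6 and the other 5 values were mixed. The log2 change was 0.05 (standard error 0.16, 95% interval -0.33 to 0.43), with an unadjusted p of 0.751 and an adjusted p of 0.936 in limma with Benjamini-Hochberg adjustment, and an exact permutation p of 0.9. Its sign turned under 9 of 17 alternatives that kept all arrays.

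Among the distal members, those near the start of the cluster gave close values in both groups. The signal of miR-379 was 20.7%, 18.2% and 16.9% in the non-loading and 16.1%, 17.6% and 18.0% in the loading samples. miR-411* gave 11.7%, 14.0% and 13.4% against 11.5%, 11.3% and 13.7%. miR-299 gave 9.42%, 10.7% and 11.9% against 9.24%, 8.86% and 11.3%. The loading mean was lower for all 3, with log2 changes of -0.10, -0.10 and -0.12, and the groups overlapped. miR-329 gave 6.97%, 7.55% and 10.0% against 7.53%, 6.03% and 8.26%, a log2 change of -0.16 with a standard error of 0.18. The highest value was again that of non-loading replicate 3.

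miR-494 had its highest value, 27.6%, and its lowest, 17.7%, both in the loading group. The third loading sample was at 22.3% and the non-loading samples were at 22.2%, 23.2% and 19.6%, so the change of 0.04 on the log2 scale lay far within the spread (standard error 0.17). miR-300-3p gave 10.1%, 9.97% and 9.41% against 9.08%, 7.88% and 10.2%, with a log2 change of -0.13. Loading replicate 3 was level with the highest non-loading sample, while the other loading samples lay below all of them. miR-487b gave 5.06%, 4.44% and 4.27% against 4.08%, 3.64% and 4.93%, a log2 change of -0.13, with the same arrangement except that loading replicate 3 fell below the highest non-loading sample. miR-369-5p gave 7.49%, 6.66% and 6.08% against 5.78%, 6.88% and 7.75%, a log2 change of 0.01. Its groups covered nearly the same range.

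miR-382, from the middle of the distal group, was the member with the widest spread between arrays. Its signal was 3.34%, 3.48% and 2.80% in the non-loading and 3.60%, 2.47% and 4.26% in the loading samples. The loading samples held both the lowest and the highest value. The log2 change was 0.07 (standard error 0.21, 95% interval -0.45 to 0.59), with an unadjusted p of 0.746 and an adjusted p of 0.936 in limma with Benjamini-Hochberg adjustment, and an exact permutation p of 0.8. The interval is wide enough to hold a change of the size seen for miR-154 or miR-410.

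**Figure D2:**
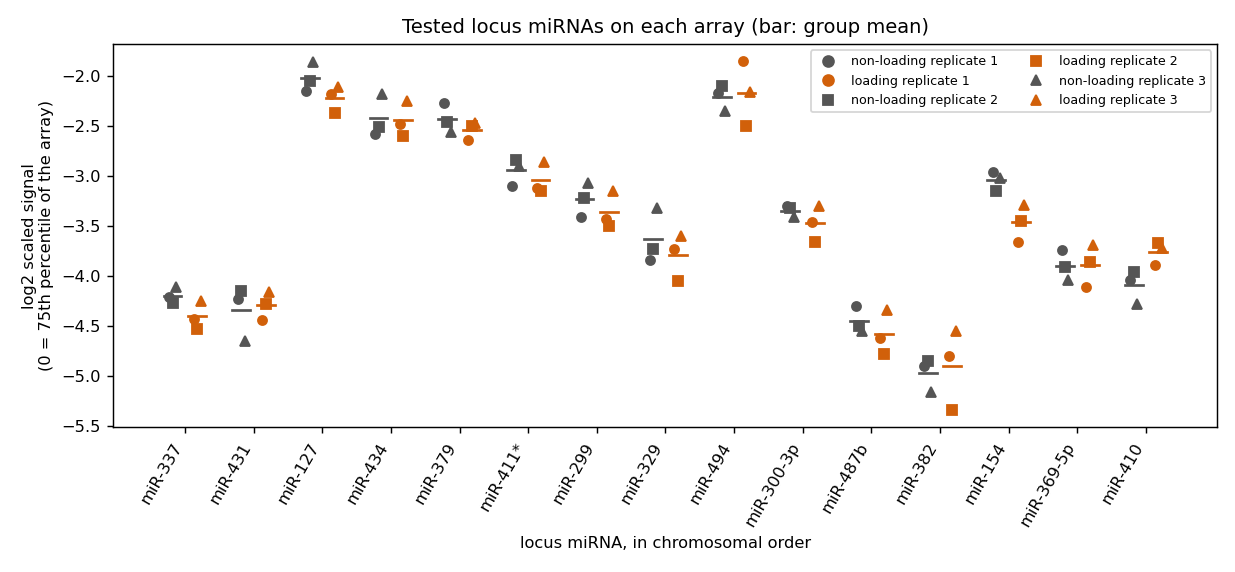
Signal of the tested locus miRNAs on each of the 6 arrays, as log2 of the signal over the array's 75th percentile, with 1 point per non-loading (grey) or loading (orange) sample and a bar for the mean of each group. Positions along the axis follow the chromosome, and levels of different miRNAs are not comparable. Only miR-154 (lower) and miR-410 (higher) have loading samples that all lie on one side of the non-loading samples.

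In direction, the members leaned to lower values under loading while the miRNAs as a whole leaned to higher ones. The group mean was lower under loading for 10 of the 15 tested members and for 49 of all 148 tested miRNAs (33.1%). The median log2 change was -0.10 over the members and 0.06 over all. For the 13 members detected on all 6 arrays, 10 were lower and the median was -0.12, beside 33.1% lower and a median of 0.06 over the 133 such miRNAs. Of the other 65 tested miRNAs whose mean signal lay in the members' range, 23 (35.4%) were lower and the median was 0.08. These are descriptions of 15 miRNAs cut from shared transcripts, not independent measurements, and no test was made of the list.

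**Figure D3:**
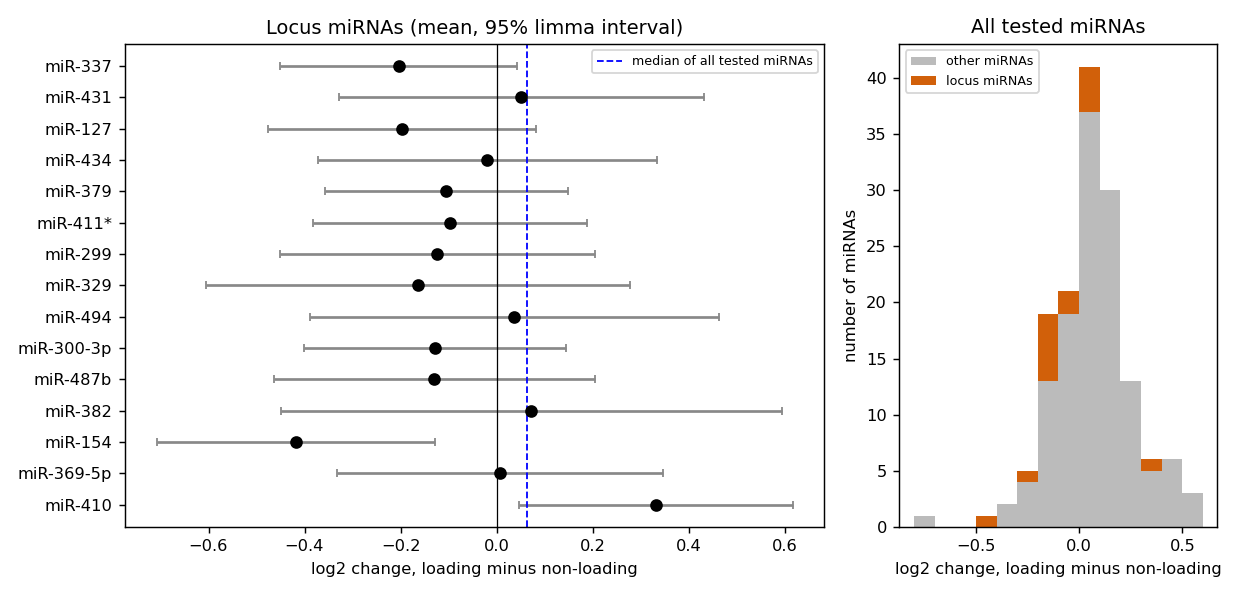
Log2 change (loading minus non-loading) of each tested locus miRNA with its 95% interval from limma, beside a histogram of all 148 tested miRNAs with the locus miRNAs in orange. The intervals of miR-154 (-0.71 to -0.13) and miR-410 (0.05 to 0.62) do not include 0, miR-410 having passed the filter only through the loading group, and the medians are -0.10 for the locus and 0.06 for all tested miRNAs.

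The lean was found in both groups of hairpins. Of the 4 proximal members detected everywhere 3 were lower, with a median of -0.11, and of the 9 distal ones 7 were lower, with a median of -0.12. The median absolute log2 change was 0.12 over the members and 0.11 over all 148 tested miRNAs. The median of the members lay below that of all miRNAs under all 23 alternatives, by 0.04 to 0.24 on the log2 scale. Some alternatives could not change this gap. Pooled variance, eBayes trend and the replicate block leave every log2 change as it was. Scaling over all probes or no scaling moves the members and all miRNAs by nearly the same amount. The median of all miRNAs itself moved with the scaling, from 0.06 to -0.45 with normexp background correction and to -0.09 with the 75th percentile over all probes, and the members' median was then -0.54 and -0.26. In other settings that kept all arrays the members' own median was small. It was -0.0020 (8 of 15 lower) with normexp after outlying background values were replaced and -0.022 (9 of 15 lower) with array weights. Over all members detected on at least 1 array it was -0.020 (12 of 21 lower). The median of all miRNAs was 0.041, 0.036 and 0.085 in these settings, and members minus all was -0.043, -0.058 and -0.105.

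**Figure D4:**
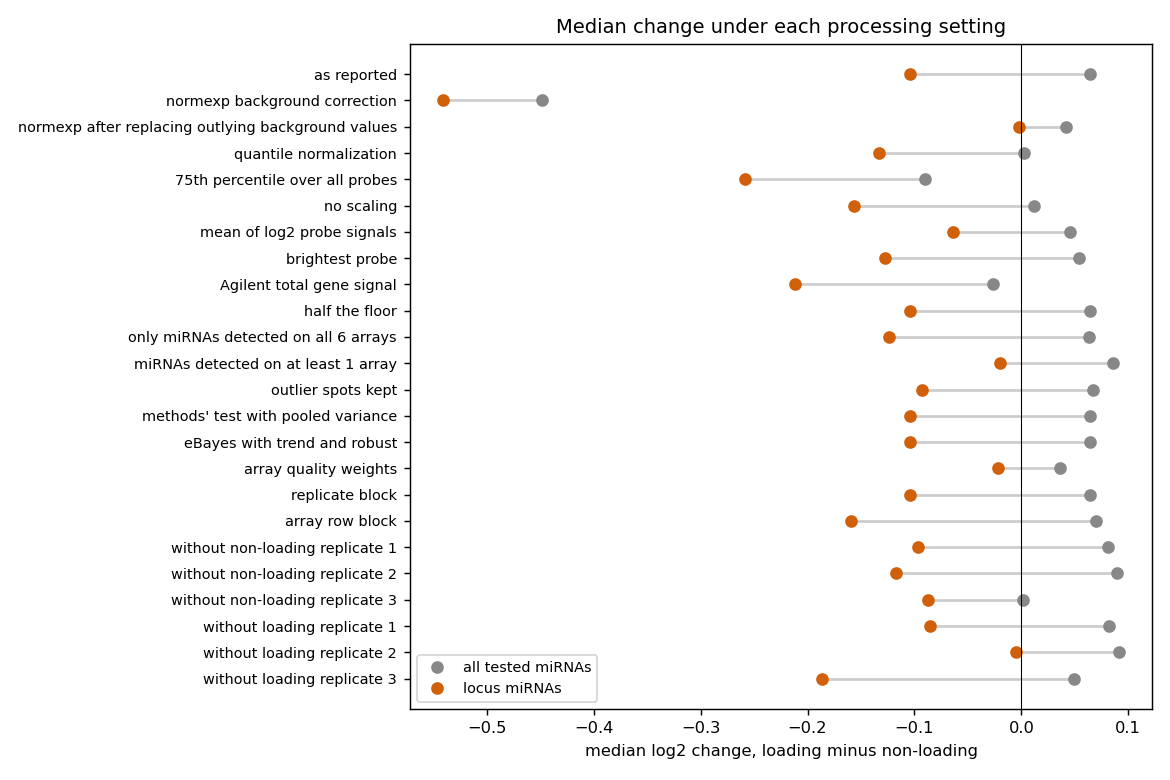
Median log2 change (loading minus non-loading) of the tested locus miRNAs (orange) and of all tested miRNAs (grey), as reported and under each of the 23 alternatives, 1 line each. The orange point lies to the left of the grey point on every line, and with normexp background correction both lie far below 0, at -0.54 and -0.45. The lines for pooled variance, eBayes trend and robust and the replicate block repeat the points as reported.

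The summed signal of the 13 members detected everywhere was 156.3%, 158.3% and 163.0% in the non-loading and 148.0%, 134.4% and 161.6% in the loading samples. The means were 159.2% ± 3.45 and 148.0% ± 13.6 (SD, n = 3). Loading replicate 3 lay among the non-loading samples and the other loading samples below them. As a share of the summed signal of the 133 miRNAs detected everywhere, the 13 made up 0.488%, 0.490% and 0.536% in the non-loading and 0.468%, 0.404% and 0.490% in the loading samples.

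The loading arrays differed among themselves in this lean. Relative to each miRNA's mean over the 6 arrays, 12 of the 13 members were below the mean in loading replicate 1, 11 in loading replicate 2 and 1 in loading replicate 3. In non-loading replicates 1, 2 and 3 the numbers were 5, 3 and 5. The members' median deviation was -0.12 and -0.20 on the log2 scale in loading replicates 1 and 2 and 0.11 in loading replicate 3, the highest of the 6 arrays. Loading replicate 3 in this resembled the non-loading samples, whose medians were 0.09, 0.07 and 0.10. Of all 133 miRNAs detected everywhere, 45.1%, 46.6% and 26.3% were below the mean in loading replicates 1, 2 and 3. In non-loading replicates 1, 2 and 3 the shares were 47.4%, 42.1% and 79.7%. Their medians were between -0.13 in non-loading replicate 3 and 0.06 in loading replicate 3. Loading replicate 3 was thus the highest array for all miRNAs too, by a smaller deviation than for the members. On the slide, loading replicate 1 shared a row with the 3 non-loading samples and loading replicates 2 and 3 made up the other row. With the row as a block, which leaves loading replicate 1 against the non-loading samples, the log2 change was -0.61 for miR-154, 0.20 for miR-410 and -0.23 for miR-337, and the median of the members was -0.16. No p is given for these values, which rest on 1 loading array.

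**Figure D5:**
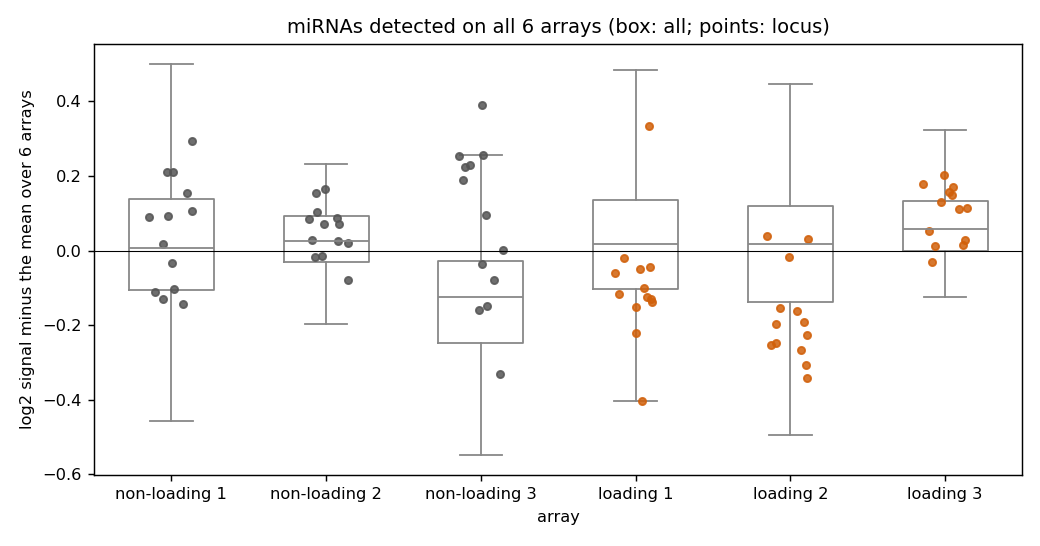
Log2 deviation of each of the 13 locus miRNAs detected everywhere from its own mean over the 6 arrays, with 1 column of points per array. The box of each array gives the quartiles of all 133 miRNAs detected everywhere, with the median as a line. The medians of the locus miRNAs in loading replicates 1 and 2 are -0.12 and -0.20, and that in loading replicate 3 is 0.11.

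Leaving out loading replicate 3 moved the median of the members to -0.19, and 8 members then had groups that did not overlap. Of them 7 were lower (miR-127, miR-154, miR-299, miR-300-3p, miR-337, miR-411* and miR-487b). miR-410, which passed the filter only through the loading group, was higher. In that comparison of 3 samples with 2, 22.3% of all tested miRNAs did not overlap, and 8.78% did not overlap and were lower. The members miR-337 and miR-154 had an unadjusted p under 0.05 in limma, beside 4.05% of all tested miRNAs. Leaving out loading replicate 1 left the median at -0.086, with 11 of 15 members lower. Leaving out loading replicate 2 let 19 members into the test, with a median of -0.0051, and over the original 15 the median was -0.03. Then 5 members did not overlap, miR-341, miR-382, miR-409-3p and miR-410 higher and miR-154 lower, beside 34.9% of all tested miRNAs. Of these, miR-341, miR-409-3p and miR-410 passed the filter only through the loading group, in which they were higher. Their place in this count is no support for a difference. miR-154 was then the only member below an unadjusted p of 0.05 in limma, beside 9.14% of all tested miRNAs. Without non-loading replicate 3 it was again the only one, beside 8.55%. The median Pearson correlation between deviations from the group means was 0.33 over the 78 pairs of the 13 members detected on all 6 arrays. Over the 8778 pairs of all 133 such miRNAs it was 0.25. Each value rests on 6 arrays, which all pairs share, and the members were close to the array as a whole in this.

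Each tested member was measured by a pair of probes with 10 spots each per array. The probe with the higher signal was lower under loading for 13 of the 15 members and the dimmer one for 5 of 15, and both differed in the same direction for 7. The dimmer probe was detected on any array for 3 members only. Both probes of miR-154 were lower, from 9.34% to 7.06% for the brighter one, with 58 of 60 spots above background over both groups, and from 2.79% to 2.05% for the dimmer one, with 6 of 60. The probes of miR-410 gave like differences, from 2.94% to 3.70% and from 2.95% to 3.69%, each with 25 of 60 spots above background. The brighter probe of miR-337, with 40 of 60 spots above background, went from 4.50% to 3.75%. Its dimmer probe, with 1 of 60, went from 0.956% to 0.998%. For miR-127 the brighter probe, with all 60 spots above background, went from 20.4% to 17.4% and the dimmer one from 4.23% to 4.04%.

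The median error from the spots of an array was below the SD between arrays for all 15 members. For miR-154 the median standard error from the spots was 0.05 on the log2 scale and the SD between arrays of a group 0.15. The corresponding values were 0.08 and 0.12 for miR-337, 0.05 and 0.14 for miR-127, and 0.06 and 0.14 for miR-410. Over the 15 members the spot error ran from 0.03 (miR-379) to 0.11 (miR-487b) and the SD between arrays from 0.12 (miR-337) to 0.31 (miR-382). On the array with the highest spot error, that error exceeded the SD between arrays for miR-337 (0.157 against 0.115), miR-411* (0.152 against 0.146) and miR-487b (0.192 against 0.181).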

How the data were processed

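Per the file headers, the authors deposited spot values from Agilent Feature Extraction (10.7.3.1): for each spot an intensity with the background subtracted and no scaling between arrays, besides flags for outliers, saturation and detection. The series' value table held the same intensities. After removal of control spots and of outlier-flagged spots (2.93 to 4.17% per array), the mean of the spots was taken for each probe. A probe counted as detected when the scanner software placed 50% or more of its spots well above background, and for 173 probes this held on all 6 arrays. The 75th percentile of these 173 was the unit of signal of the array. The signal of a miRNA was the sum of its probes, with a floor of 1.87% that no tested member reached, and log2 values of the deposited intensity so scaled were analysed. The 148 miRNAs detected on every array of one group or both were fitted together in limma 3.58.1 (lmFit, eBayes, R 4.3.3) with Benjamini-Hochberg adjustment. Single values were compared by two-sided exact permutation. The script was tested on simulated data.

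The text gives values for members detected on all 6 arrays and both arms of miR-337, and full statistics for the 3 smallest p in each direction. miR-410 and miR-382 also get array values by that rule. Members, lists and the proximal and distal groups were chosen with earlier results of these data known. miR-541 and miR-667, listed as proximal beforehand, lie among the distal hairpins in the gene table and are counted there. Alternatives concerned background, scaling, probe summary, floor, filter, test, weights, blocks and each array left out. No saturated spot was found.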

Additional observations from a re-analysis of the deposited data

How the results depend on the processing

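The 6 arrays, and for the dim members the few spots above background, limit these results. Under every alternative 0 members had an adjusted p under 0.05. Over 17 alternatives that kept all arrays and 6 that left out 1, 7 of the 15 tested members kept the sign of their log2 change throughout, miR-127, miR-154, miR-299, miR-300-3p, miR-337, miR-379 and miR-411*. The lower floor, the other filters, pooled variance, eBayes trend and the replicate block left these changes as they were, so they could not turn a sign. With normexp after outlying background values were replaced, most of the 7 kept their sign only by a very small change. It was -0.0033 for miR-337, -0.0035 for miR-300-3p, -0.0074 for miR-379, -0.0080 for miR-411* and -0.0084 for miR-299. For miR-127 and miR-154 it was -0.044 and -0.058. The adjusted p (limma, Benjamini-Hochberg) of miR-154 lay between 0.220 and 0.997 and that of miR-337 between 0.426 and 0.997. The methods' test with pooled variance gave 2 members, miR-154 and miR-410, at an unadjusted p under 0.05, beside 10.1% of all tested miRNAs. After Benjamini-Hochberg adjustment it gave 0. The causes of the changes below were not tested.

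The number of members with an unadjusted p under 0.05, 2 as reported, was 0 with normexp background correction (0% of all tested miRNAs), with normexp after outlying background values were replaced (5.41%), with the 75th percentile over all probes (0.676%) and with Agilent's total gene signal (5.41%). It was 1, miR-154 each time, without scaling (2.70%), with only miRNAs detected on all 6 arrays (9.02%) and with eBayes trend and robust (10.1%). No number is given with a block for the row of the array, which rests on 1 loading array. It was 3 with the brightest probe (9.46%), which added miR-337, and with miRNAs detected on at least 1 array (10.0%), which added miR-341. As miR-341 was detected on loading arrays only, where it was higher, its place in this count is no support for a difference. The number with groups that did not overlap, 2 as reported, was 0 with normexp (0%), with normexp after replacement (12.2%) and with all probes (0.676%), 1 with only miRNAs detected on all 6 arrays (15.8%), and 4 with quantile normalization (18.2%) and with the brightest probe (15.5%). The median log2 change of the members, -0.10 as reported, was -0.54 with normexp and -0.26 with all probes, where that of all miRNAs was -0.45 and -0.09. It was -0.0020 with normexp after replacement and -0.022 with array weights, where that of all miRNAs was 0.041 and 0.036. Leaving out 1 array gave 1 to 2 members with an unadjusted p under 0.05, beside 4.05 to 11.5% of all tested miRNAs. It gave 2 to 8 without overlap, beside 22.3 to 34.9%, and a median of -0.19 to -0.0051.

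Whether samples with the same replicate number belong together was not settled. The correlations between the deviations of same-numbered samples were -0.69, -0.47 and 0.11. Samples of different numbers were not compared, so these values cannot decide it. With the replicate number as a block in limma 1 member, miR-154, had an unadjusted p under 0.05, beside 4.05% of all tested miRNAs.

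Signs turned as follows. With normexp the log2 changes were -0.57 for miR-369-5p, -0.59 for miR-382, -0.56 for miR-410, -0.58 for miR-431 and -0.40 for miR-494. With outlying background replaced first, they were 0.017 for miR-434 and 0.011 for miR-487b. Quantile normalization gave -0.067 for miR-369-5p, -0.13 for miR-382, -0.063 for miR-431 and -0.015 for miR-494, and all probes gave -0.15, -0.082, -0.10 and -0.12 for the same 4. Without scaling, miR-369-5p was at -0.044, miR-431 at -0.00011 and miR-494 at -0.015. The mean of log2 probe signals gave -0.045 for miR-369-5p, -0.017 for miR-382 and -0.0028 for miR-431, and the brightest probe gave -0.091, -0.034 and -0.0055 for the same 3. The total gene signal gave -0.47 for miR-382, -0.11 for miR-431 and -0.042 for miR-494. Array weights gave 0.13 for miR-434, -0.022 for miR-431 and 0.014 for miR-329. The array row as a block gave -0.22 for miR-369-5p and -0.091 for miR-431. Leaving out 1 array turned the sign of 5 members, with ranges of -0.092 to 0.12 for miR-369-5p, -0.098 to 0.29 for miR-382, -0.10 to 0.15 for miR-431, -0.11 to 0.10 for miR-434 and -0.12 to 0.20 for miR-494.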

Other observations

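The array also held 13 names from the same stretch of chromosome 6 that the list of numbers does not include, 7 of them from hairpins on the minus strand of the GRCr8 gene table. Of these, miR-1188-3p was detected on 3 of the 6 arrays and miR-3544, which lies opposite Mir337, on 2. The others, miR-666 and miR-1193-3p among them, were detected on none.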
